A study of Rattus norvegicus with 6 samples.

Results

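The genes of 9 adipokines, proteins that fat tissue releases as signals, were followed in adipose-derived stem cells (ADSCs), cultures grown from the stroma of rat fat that can become adipocytes. They are Adipoq, Lep, Retn, Rarres2, Nampt, Apln, Metrnl, Nrg4 and Serpinf1, chosen by symbol from the platform annotation, and each had 1 feature among the 36685 of the array table. They are 9 of the 18166 genes with a symbol of their own. Induced ADSCs, on 3 arrays, had spent 7 days in an adipogenic medium of 0.5 mM 3-isobutyl-1-methylxanthine (IBMX, a phosphodiesterase inhibitor that raises cAMP), 1 µM of the glucocorticoid dexamethasone, insulin at 5 µg/ml and fetal bovine serum at 20%. Control ADSCs, on the other 3 arrays, grew with 10% fetal bovine serum, so the serum differed together with the inducers, and the sources used here do not give their time in culture. Cells of both groups came from the inguinal fat of female Wistar rats aged 2 weeks, and no genetic change is labelled. The labels call the arrays biological replicates but do not say whether the cultures came from separate animals, so p-values measure the spread between these cultures, which may in part be technical.

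Adipokines tie the state of fat stores to appetite, insulin action and inflammation elsewhere in the body. Adiponectin (Adipoq), leptin (Lep) and, in rodents, resistin (Retn) are made mainly by mature adipocytes. The others have wider sources: chemerin (Rarres2), visfatin (Nampt), apelin (Apln), meteorin-like (Metrnl), neuregulin 4 (Nrg4) and pigment epithelium-derived factor (Serpinf1) are also made in liver, muscle, vessels, skin or connective tissue. The arrays measured RNA, and the released proteins were not measured.

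Levels are log2 signals from RMA, the authors' robust multi-array average, in which a step of 1 is a doubling. Every difference is induced minus control, from limma over 3 arrays in each group, and a gene was called at a Benjamini-Hochberg adjusted p under 0.05 over all 18166 genes. RMA gives no detection call. As a guide to background, the 67 olfactory receptor genes of the array, most of which are thought to be silent outside the nose, had a median level between 3.57 and 3.65 and a 95th percentile between 6.08 and 6.33 on the 6 arrays. Probes differ in affinity, so this guide is no limit of detection. Induced replicate 3 stood apart from its group: it was over 2-fold from the mean of the other induced arrays for 8.20% of genes, against 1.61% for induced replicate 1 and 1.83% for induced replicate 2. For control replicates 1 to 3 the shares were 1.68%, 1.23% and 1.99%, so no control array stood apart over all genes.

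Of the 9 adipokine genes, 2 passed the test, Retn and Lep, and both were higher in induced cells, against 0.749% of all genes called in either direction and 0.479% called higher. The 3 induced arrays lay wholly above the 3 control arrays for 5 adipokines (Retn, Adipoq, Nrg4, Lep and Nampt), as they did for 12% of all genes, and those 5 averaged at least 2-fold higher, as 2.81% of genes did. Metrnl alone had all induced arrays below all control arrays, which 13.4% of genes had. The groups overlapped for Rarres2, Apln and Serpinf1. The median difference over the 9 genes was 1.85, against -0.01 over all genes. At an unadjusted p under 0.05 there were 6 of the 9, against 17.6% of all genes. In such bulk cultures, a larger share of adipocytes and more RNA per adipocyte cannot be told apart.

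**Figure D1:**
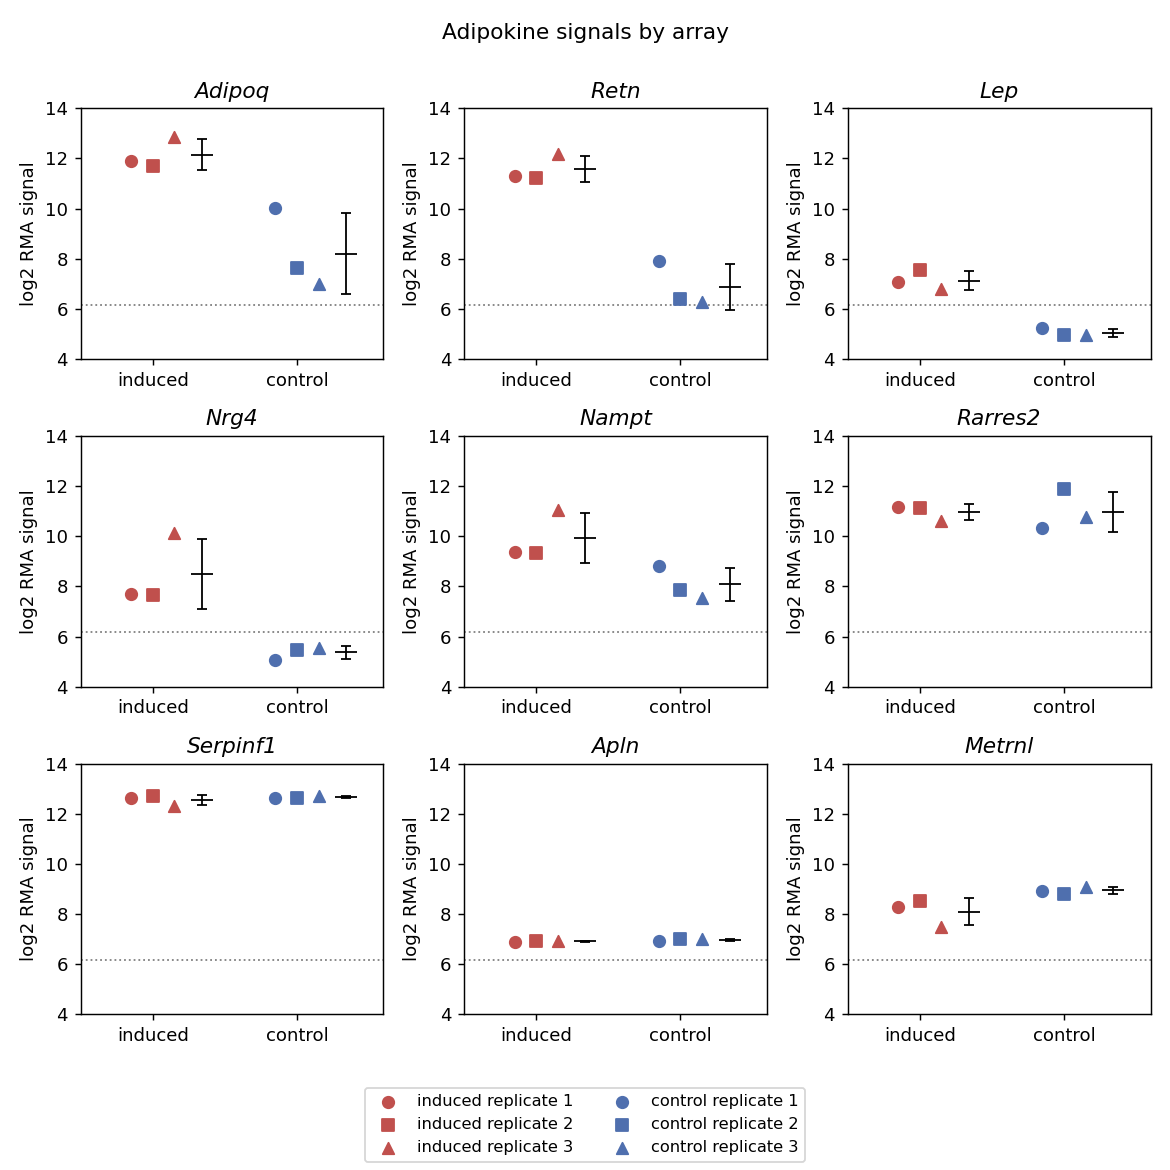
Log2 RMA signal of each adipokine gene (y axis, same scale in every panel) on the 3 induced arrays (red, left) and the 3 control arrays (blue, right), with the mean and SD of each group as black bars. The dotted line is the mean over arrays of the 95th percentile of olfactory receptor genes, 6.17. Adipoq, Retn, Lep, Nrg4 and Nampt separate upwards in induced cells, Metrnl separates downwards, and the other genes overlap.

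Resistin, a cysteine-rich hormone that opposes insulin action in mice, had the largest difference of the 9. Retn read 11.31, 11.23 and 12.19 on induced replicates 1 to 3, against 7.91, 6.40 and 6.27 on control replicates 1 to 3. All induced arrays were far above all control arrays, and the lowest induced value exceeded the highest control value by 3.32. Retn rose by 4.72 on the log2 scale (SE 0.48, limma adjusted p = 0.0188), a 26.4-fold difference with a 95% interval from 11.8 to 58.7. It held rank 6 of 18166 genes by the size of the difference. The 2 lower control values lay close to the 95th percentile of the olfactory receptor genes, so the fold may be too small. The call was lost without induced replicate 1 (limma adjusted p = 0.103), induced replicate 2 (0.0838), control replicate 2 (0.0807) or control replicate 3 (0.0767). Those fits called few genes of any kind: 0.011%, 0.143%, 0.0826% and 0.11% of all genes, against 0.749% with all 6 arrays. The difference of Retn stayed between 4.41 and 5.25 with any 1 array left out.

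Leptin, which signals the size of fat stores to the hypothalamus, was the other gene that passed. Lep read 7.08, 7.54 and 6.78 on induced replicates 1 to 3, against 5.24, 4.97 and 4.96 on control replicates 1 to 3. The control arrays were tightly grouped and all below the 95th percentile of the olfactory receptor genes, and the induced arrays were all above it. Lep rose by 2.08 (SE 0.21, limma adjusted p = 0.0186), 4.22-fold with a 95% interval from 2.99 to 5.96. With control levels so near the background guide, the fold may be too small. Unlike the other genes that separated upwards, Lep was lowest among induced arrays on induced replicate 3. The call was lost without induced replicate 1 (adjusted p = 0.103), control replicate 2 (0.0825) or control replicate 3 (0.0815), with differences between 1.87 and 2.25 over the 6 fits that left out 1 array.

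Adiponectin, a collagen-like hormone that improves insulin action, had the widest spread among control cells. Adipoq read 11.89, 11.69 and 12.85 on induced replicates 1 to 3, against 10.04, 7.62 and 6.98 on control replicates 1 to 3. The groups did not overlap, but control replicate 1 stood 2.74 above the mean of the other control arrays. The estimate was 3.93 (SE 0.78, 95% interval 2.07 to 5.80) and did not pass over all genes (limma adjusted p = 0.0866). Without control replicate 1 the difference was 4.85 and Adipoq was called (adjusted p = 0.0267, with 0.617% of all genes called in that fit). The same array was the highest control array for Retn, Lep and Nampt, though not for Nrg4, where it was the lowest.

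Neuregulin 4, an EGF-family ligand of ErbB receptors that brown fat releases in mice, had the widest spread among induced cells. Nrg4 read 7.69, 7.67 and 10.12 on induced replicates 1 to 3, against 5.08, 5.47 and 5.56 on control replicates 1 to 3. Every control array was below the background guide and every induced array above it, so the difference may be too small. Induced replicate 3 stood 2.44 above the mean of the other induced arrays. The estimate was 3.12 (SE 0.65, 95% interval 1.57 to 4.67, limma adjusted p = 0.0939). Without induced replicate 3 it was smaller, 2.31, and Nrg4 was called (adjusted p = 0.00193, with 3.07% of all genes called in that fit).

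Nampt encodes the rate-limiting enzyme of NAD salvage, which is also released as visfatin. It read 9.38, 9.32 and 11.07 on induced replicates 1 to 3, against 8.83, 7.85 and 7.54 on control replicates 1 to 3. The groups separated by 0.49, the narrowest gap of the 5 genes that lay higher. The estimate was 1.85 (SE 0.54, 95% interval 0.55 to 3.15) with an adjusted p of 0.169 from limma. It was 1.28 without induced replicate 3 and 2.22 without control replicate 1, and neither passed (adjusted p = 0.124 and 0.176).

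**Figure D2:**
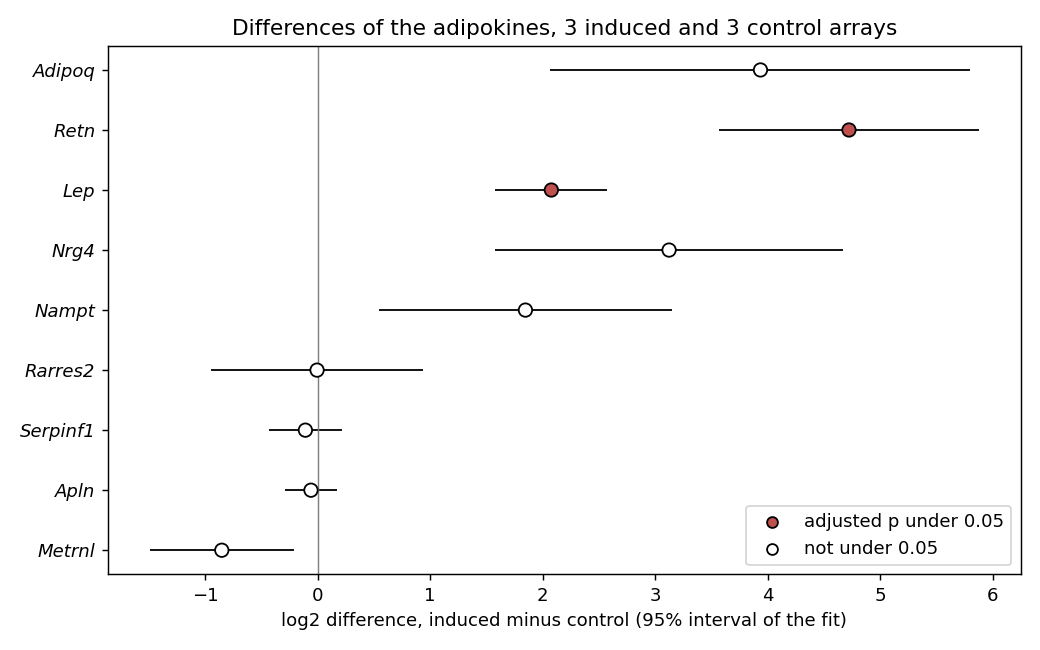
Difference of each adipokine gene, induced minus control, on the log2 scale (x axis), with the 95% interval of the fit over 3 arrays in each group. Filled points passed the adjusted threshold. Retn at 4.72 and Lep at 2.08 are filled, while Adipoq at 3.93 and Nrg4 at 3.12 have wider intervals and are open.

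With control replicate 1 and induced replicate 3 both left out, 5 of the 9 adipokines were called higher (Retn, Adipoq, Lep, Nampt and Nrg4). Their differences were then 4.94, 4.50, 2.34, 1.65 and 2.16. In that fit 5.38% of all genes were called in either direction, and 611 of 18166 were called higher. The choice was made after seeing the data and leaves 2 arrays in each group. It removes extreme values of these same genes and so narrows their spread, and these calls are no separate test. On the arrays left out, Retn, Adipoq and Nampt had been the highest of each group, Nrg4 the highest induced but the lowest control value, and Lep the lowest induced but the highest control value.

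**Figure D3:**
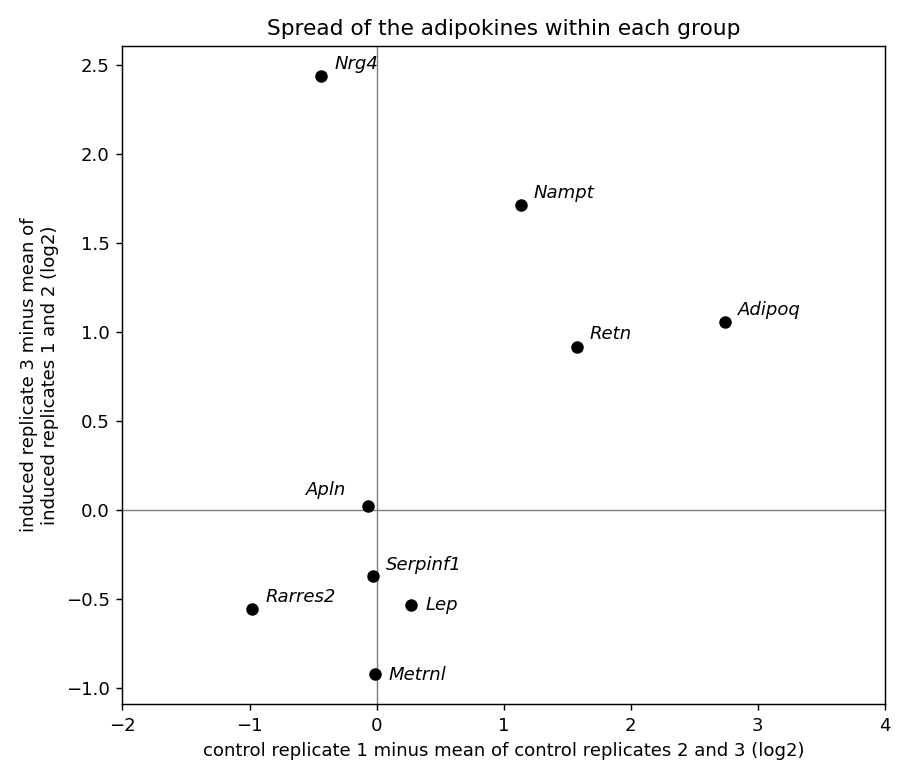
Each point is an adipokine gene. The x axis gives control replicate 1 minus the mean of control replicates 2 and 3, and the y axis induced replicate 3 minus the mean of induced replicates 1 and 2, both on the log2 scale. Adipoq lies furthest right at 2.74 and Nrg4 highest at 2.44, while Apln lies near the origin.

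The 250 bases before the start of 4 of the genes that separated upwards are shown because these genes differed most by group. They come from RefSeq on GRCr8, read 5′ to 3′ on the gene's strand, and 8 of the 9 adipokines matched that table. Capitals mark AGGTCA, the core that nuclear receptors such as PPARγ bind in pairs, and TTNNGNAA, a loose C/EBP motif, each on either strand.
Retn (chr12:6508524-6508773, plus strand): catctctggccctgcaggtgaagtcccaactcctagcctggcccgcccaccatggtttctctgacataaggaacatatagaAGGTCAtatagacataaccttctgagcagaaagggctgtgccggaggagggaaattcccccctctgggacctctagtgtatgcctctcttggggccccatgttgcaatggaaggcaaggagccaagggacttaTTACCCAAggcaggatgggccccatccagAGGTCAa
Lep (chr4:58626288-58626537, plus strand): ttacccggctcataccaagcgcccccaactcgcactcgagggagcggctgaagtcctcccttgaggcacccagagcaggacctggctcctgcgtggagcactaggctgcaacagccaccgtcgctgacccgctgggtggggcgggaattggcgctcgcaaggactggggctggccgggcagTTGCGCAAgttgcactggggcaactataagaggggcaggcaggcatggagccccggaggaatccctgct
Adipoq (chr11:91240170-91240419, minus strand): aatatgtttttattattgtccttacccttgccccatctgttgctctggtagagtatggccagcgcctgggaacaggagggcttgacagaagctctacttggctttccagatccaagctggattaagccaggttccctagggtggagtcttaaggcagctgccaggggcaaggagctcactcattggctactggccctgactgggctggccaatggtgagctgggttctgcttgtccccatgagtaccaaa
Nrg4 (chr8:64555174-64555423, minus strand): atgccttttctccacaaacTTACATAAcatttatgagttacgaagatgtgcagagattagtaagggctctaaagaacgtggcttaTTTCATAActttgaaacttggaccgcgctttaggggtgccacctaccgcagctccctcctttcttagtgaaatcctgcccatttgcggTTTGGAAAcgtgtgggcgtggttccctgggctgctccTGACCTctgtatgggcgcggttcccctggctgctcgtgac
Retn held AGGTCA at 2 places, with first bases at -169 and -7 from the start, and 1 match to TTNNGNAA. AGGTCA stood in 4 of the 8 adipokine windows (Retn, Nrg4, Rarres2 and Serpinf1), and in 13.7% of 27457 windows of the same length. TTNNGNAA stood in 5 of the 8 (Lep, Retn, Nrg4, Rarres2 and Serpinf1) and in 36.8% of all windows. The Lep match, at -69 to -62, was the full palindrome TTGCGCAA, which 0.164% of all windows held and which overlaps the looser motif. The glucocorticoid receptor core TGTTCT stood in 0 of the 8 and in 17.1% of all windows. The Adipoq window held neither of the capitalised motifs. A match is a description of letters, and its absence covers this window only.

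Metrnl encodes meteorin-like, a secreted protein of muscle and fat. It read 8.29, 8.51 and 7.48 on induced replicates 1 to 3, against 8.93, 8.81 and 9.09 on control replicates 1 to 3. Every induced array was below every control array, and induced replicate 3 was the lowest. The estimate was -0.85 (SE 0.27, 95% interval -1.49 to -0.21), 1.80-fold lower in induced cells, and did not pass (limma adjusted p = 0.189). Without induced replicate 3 it was -0.54 (adjusted p = 0.104).

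Rarres2 encodes chemerin, a chemoattractant for immune cells that also acts on adipocytes. It read 11.18, 11.14 and 10.61 on induced replicates 1 to 3, against 10.33, 11.86 and 10.75 on control replicates 1 to 3. Control arrays spanned the whole range of induced arrays and more. The estimate was -0.0049 (SE 0.39, limma adjusted p = 0.996), with a 95% interval from -0.95 to 0.94, so changes of nearly 2-fold either way remain within the error.

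Serpinf1 and Apln had the narrowest intervals of the 9 adipokines. Serpinf1 encodes an anti-angiogenic serpin secreted by stromal cells and adipocytes, and read 12.65, 12.69 and 12.30 on induced replicates 1 to 3, against 12.64, 12.63 and 12.70 on control replicates 1 to 3. Its estimate was -0.11 (SE 0.13, 95% interval -0.43 to 0.21, limma adjusted p = 0.742). These levels are near the top of the scale, whose highest value was 13.55, and saturation was not tested. Apln encodes apelin, a peptide that acts on vessels and heart, and read 6.88, 6.93 and 6.93 on induced replicates 1 to 3, against 6.93, 6.99 and 7.01 on control replicates 1 to 3. Its estimate was -0.06 (SE 0.10, 95% interval -0.29 to 0.17, limma adjusted p = 0.813), and all 6 arrays lay within 0.12 of each other, not far above the background guide.

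With 1 array left out, the share of all genes called was 0.011%, 0.143% and 3.07% without induced replicates 1 to 3, and 0.617%, 0.0826% and 0.11% without control replicates 1 to 3. Between 0 and 3 of the 9 adipokines were called in these 6 fits, and the signs of the estimates of Retn, Adipoq, Nrg4, Lep, Nampt, Apln and Metrnl were the same in each.

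**Figure D4:**
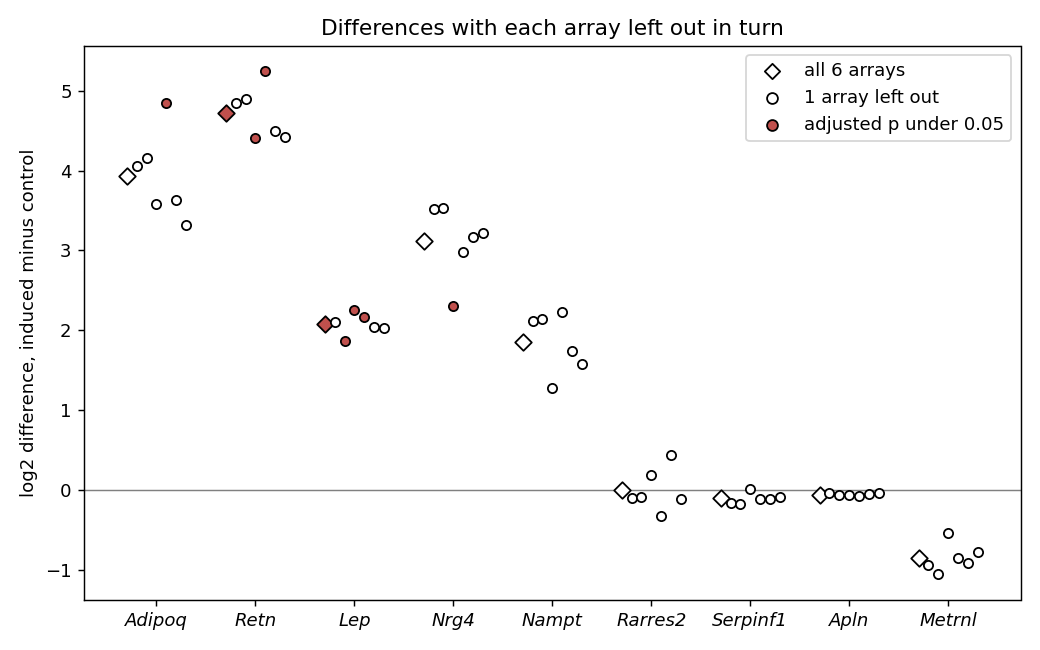
Log2 difference, induced minus control, of each adipokine gene with all 6 arrays (diamonds) and with 1 array left out (circles, in the order induced replicates 1 to 3, then control replicates 1 to 3). Filled symbols passed the adjusted threshold. Retn kept differences from 4.41 to 5.25 and passed in 2 of its 6 smaller fits, Lep passed in 3, Adipoq and Nrg4 in 1 each.

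Of the 12 measured genes for receptors and surface partners of these adipokines, 1 passed, higher in induced cells, against 0.749% of all genes called in either direction. It was Cmklr1, the main signalling receptor for chemerin, which read 9.66, 9.38 and 10.26 on induced replicates 1 to 3, against 6.99, 6.29 and 6.98 on control replicates 1 to 3. The induced arrays all lay far above the control arrays. Cmklr1 rose by 3.02 (SE 0.29, 95% interval 2.33 to 3.70, limma adjusted p = 0.0181). That call was lost without induced replicate 1 (adjusted p = 0.102), control replicate 2 (0.0541) or control replicate 3 (0.0643), with differences from 2.77 to 3.21 over the fits that left out 1 array. The gene of its ligand, Rarres2, overlapped between the groups on the same arrays.

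The other chemerin-binding receptors, chosen for naming after their values were seen, had small negative estimates: Cmklr2 stood at -0.33 (adjusted p = 0.234) and Ccrl2 at -0.21 (adjusted p = 0.439), both at levels under the background guide. Among the adiponectin receptors, also named after their values were seen, Adipor2 read 9.98, 9.83 and 11.01 on induced arrays, against 9.28, 8.97 and 9.09 on control arrays. Its groups did not overlap, yet its estimate of 1.16 (95% interval 0.42 to 1.90) did not pass (limma adjusted p = 0.143). Without induced replicate 3 it was 0.79 and passed (adjusted p = 0.0363, with 3.07% of all genes called in that fit). Adipor1 stood at -0.05 (95% interval -0.34 to 0.24, adjusted p = 0.881), with overlapping groups. The difference between the receptors was not tested. Over all 12 genes the differences ran from -0.38 to 3.02, with a median of 0.03 against -0.01 over all genes. The apelin receptor Aplnr and the neuregulin receptors Erbb3 and Erbb4 had overlapping groups, as 13554 of 18166 genes did. Aplnr and Erbb4 lay under the background guide on every array, and Erbb3, which read from 5.67 to 6.28, lay close to it. The leptin receptor was not analysed here.

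**Figure D5:**
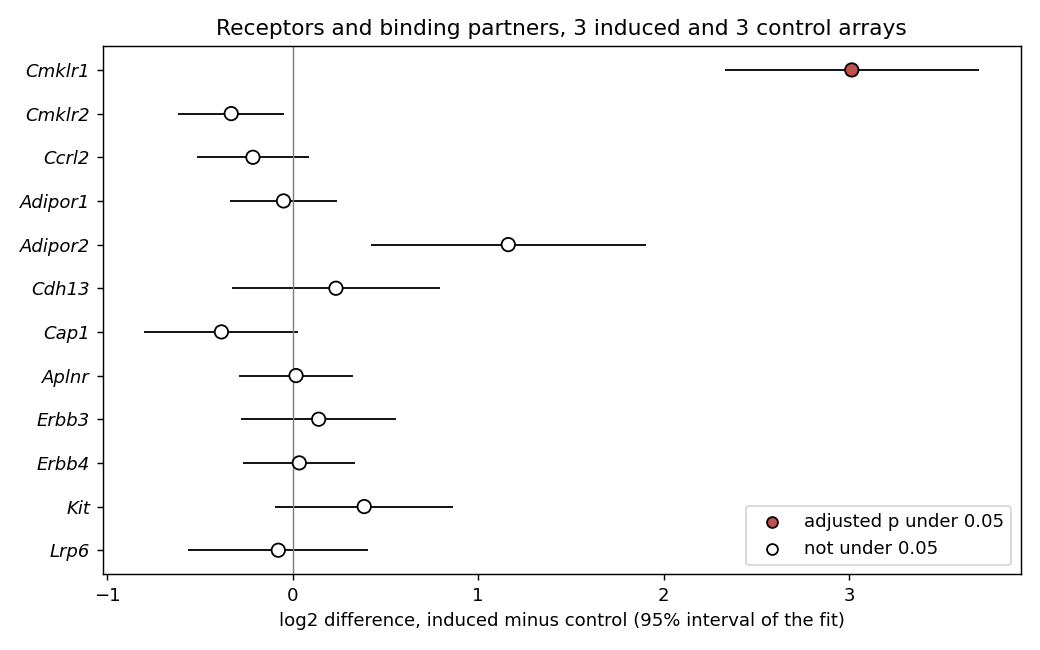
Difference, induced minus control, on the log2 scale (x axis) for 12 genes of adipokine receptors and binding partners, with the 95% interval of the fit over 3 arrays in each group. Cmklr1 at 3.02 is the 1 filled point, which marks an adjusted p under 0.05. Adipor2 at 1.16 lies next, with an interval that stays above 0 before adjustment for all genes.

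Adiponectin is folded and held back in the endoplasmic reticulum before release, and 9 genes of that step were measured. None was called by limma (0 of 9, with 4 at an unadjusted p under 0.05, where 17.6% of all genes stood), and 8 had negative estimates, with a median of -0.39. For 7 of them the induced arrays all lay below the control arrays, as for 13.4% of all genes. Their largest estimate was that of Prdx4, a peroxidase of the endoplasmic reticulum, at -0.86 (limma adjusted p = 0.292). It was -0.44 without induced replicate 3, which read 6.25 where the other induced arrays read 7.24 and 7.82. Gstk1, also called DsbA-L, which promotes adiponectin assembly in mice, stood at 0.71 (adjusted p = 0.279) and was the 1 gene of the list that separated upwards. It read 9.42, 9.51 and 10.53 on induced arrays, against 9.17, 9.03 and 9.12 on control arrays, and its estimate was 0.36 without induced replicate 3.

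None of the close relatives measured was called. Of 9 measured C1q/TNF-related genes, secreted paralogs of adiponectin, 0 were called by limma (2 at an unadjusted p under 0.05, against 17.6% of all genes). Their median difference was -0.25. C1qtnf6 had an estimate of -1.52 (adjusted p = 0.107), from levels of 8.64, 8.67 and 7.48 on induced arrays, against 9.47, 9.84 and 10.05 on control arrays. Without induced replicate 3 it was -1.13 and passed (adjusted p = 0.0296, with 3.07% of all genes called in that fit). C1qtnf3 stood at -1.45 (adjusted p = 0.464), a value set by control replicate 3, which read 7.91 where the other control arrays read 4.32 and 4.60, and -0.30 without that array. Of 8 measured relatives of the other adipokines 0 were called (2 at an unadjusted p under 0.05). Nrg1, an EGF-family ligand like Nrg4, read 6.03, 5.98 and 6.21 on induced arrays, against 7.20, 6.99 and 8.13 on control arrays, with an estimate of -1.37 (adjusted p = 0.0983) opposite in sign to that of Nrg4. Metrn, the paralog of Metrnl, stood at -0.36 (adjusted p = 0.144). The resistin-like genes Retnla, Retnlb and Retnlg, named after their values were seen, had estimates of -0.06, -0.09 and 0.06. Each lay under the background guide on every array, so little can be read from these estimates.

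Beside Nampt, 10 enzymes of NAD metabolism were measured and 0 were called (2 at an unadjusted p under 0.05, against 17.6% of all genes), with a median of 0.18. The largest estimate was that of Nnmt, which methylates the nicotinamide that Nampt uses, at 1.47 (limma adjusted p = 0.103). Nnmt read 9.25, 9.19 and 9.88 on induced arrays, against 8.02, 7.37 and 8.52 on control arrays. Nmrk1, a nicotinamide riboside kinase, stood at 0.61 (adjusted p = 0.519), a value set by induced replicate 3, which read 6.46 where the other induced arrays read 4.87 and 4.83, and 0.07 without that array.

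Among 27 measured genes of other factors that fat tissue secretes, 2 passed, both higher, against 0.749% of all genes called in either direction and 0.479% called higher: Agt, which encodes angiotensinogen, by 5.34 (limma adjusted p = 0.000952) and the retinol carrier Rbp4 by 4.77 (adjusted p = 0.00799, and 0.07 without induced replicate 1). The median over the 27 was -0.04, and 13 estimates were positive and 14 negative, so that secreted factors as a list did not lie to one side. Among 13 measured regulators known to act on adipokine genes, 0 were called by limma, although 9 stood at an unadjusted p under 0.05, against 17.6% of all genes, and the induced arrays lay wholly above the control arrays for 8, against 12% of all genes. Pparg, the nuclear receptor of adipogenesis, stood at 3.67 (adjusted p = 0.065) and Cebpa at 2.61 (adjusted p = 0.0762). Both passed without induced replicate 3 (3.22 and 2.15, adjusted p = 0.0412 and 0.0314), and Pparg also without control replicate 1 (4.30, adjusted p = 0.0415). Those fits called 3.07% and 0.617% of all genes.

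The genes most like each adipokine were sought among 17364 others for the 5 adipokines whose 6 arrays spanned at least 2, by the root mean square difference between profiles centred on their own means. For Adipoq these were Pparg (0.33), the aldehyde oxidase gene Aox1 (0.35) and the adipsin gene Cfd (0.40). For Retn they were Gpd1 (0.14), a glycerol phosphate enzyme, Rbp4 (0.21) and the lipid droplet gene Plin1 (0.26). Lep was nearest the complement genes C7 (0.26) and Cfb (0.29) and the metalloprotease inhibitor Timp4 (0.29).

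Nampt and Nrg4 were matched by genes that were also high on induced replicate 3. Nampt was nearest Acaa2 (0.12), an enzyme of fatty acid oxidation, the glycerol kinase gene Gk (0.14) and the glutamate transporter gene Slc1a3 (0.20). Nrg4 was nearest Pfkfb1 (0.24), which controls glycolysis, the glycogen phosphorylase gene Pygl (0.27) and Tm6sf2 (0.30), a gene of lipid export known from human liver. Among the adipokines themselves, Adipoq and Retn were 0.57 apart, whereas Retn and Lep were 1.48 apart. These distances rest on 6 arrays and include the difference between the groups that the matched genes share.

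Markers of the cell types that the cultures could hold were read on the same arrays. Of 15 measured mature adipocyte markers, 8 passed, all higher, against 0.749% of all genes called in either direction and 0.479% called higher. Their mean level was 10.64, 10.55 and 11.98 on induced replicates 1 to 3, against 8.25, 7.13 and 7.21 on control replicates 1 to 3. It was thus high on the same control array as Adipoq, Retn and Nampt and on the same induced array as Adipoq, Retn, Nampt and Nrg4. Thrsp, a regulator of lipogenesis, led that list at 6.04, followed by Gpd1 at 4.93, the lipid droplet gene Cidec at 4.62 and Plin1 at 4.28 (limma adjusted p = 0.0186, 0.0189, 0.0231 and 0.0312). Each of these 4 calls was lost without induced replicate 1, induced replicate 2 or control replicate 3 (adjusted p from 0.0795 to 0.152), and those of Gpd1, Cidec and Plin1 also without control replicate 2 (0.0801, 0.0891 and 0.0979). The 12 stromal precursor markers held 0 calls (5 at an unadjusted p under 0.05, against 17.6% of all genes) and had a median of -0.72. Of the 12 estimates, 10 were negative and 2 positive. For 5 markers the induced arrays all lay below the control arrays, as for 13.4% of all genes. The mean levels of the list were 8.27, 8.23 and 7.30 on induced arrays, against 8.59, 8.54 and 8.47 on control arrays. Its 2 largest estimates were those of Cd34, a progenitor marker, at -1.31 (adjusted p = 0.269) and the ectonucleotidase gene Nt5e at -1.10 (adjusted p = 0.211). Cd34 was under the background guide on every array but control replicate 3, and stood at -0.69 without that array. Nt5e stood at -0.70 without control replicate 2.

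Macrophages also make several adipokines, resistin in humans among them. Of 15 macrophage markers 0 were called by limma (2 at an unadjusted p under 0.05, against 17.6% of all genes). The groups overlapped for all 15, as they did for 13554 of 18166 genes. Their mean level was 7.63, 7.16 and 5.70 on induced replicates 1 to 3, against 6.55, 6.93 and 5.42 on control replicates 1 to 3. It was lowest on replicate 3 of each group. Retn, Adipoq and Nampt were the highest of their group on induced replicate 3 and the lowest on control replicate 3. Nrg4 was the highest of its group on both. A relation between these levels was not tested. Of the 15 estimates, 12 were positive and 3 negative. Cd68, a lysosomal protein of macrophages, had an estimate of 1.39 (adjusted p = 0.347), which was 0.61 without control replicate 3. It read 8.92, 8.38 and 9.45 on induced arrays, against 8.01, 8.60 and 5.96 on control arrays. Unlike the mean of the list, Cd68 was thus highest among induced arrays on induced replicate 3. C1qb, a complement subunit, read 8.17, 7.60 and 4.92 on induced arrays, against 5.09, 4.98 and 4.96 on control arrays, with an estimate of 1.89 (adjusted p = 0.282). Without induced replicate 3 it was 2.88 and passed (adjusted p = 0.00123), and without induced replicate 1 it was 1.25. Neutrophil markers held 0 calls of 7 (2 at an unadjusted p under 0.05), with a median of 0.03 and 5 positive and 2 negative estimates. The 2 largest were those of Mpo at 0.95 (limma adjusted p = 0.0664, and 0.0238 without induced replicate 3) and S100a8 at 0.40 (adjusted p = 0.26). S100a8 was under the background guide on every array, and Mpo on every array but induced replicate 1, which read 6.29. The fit without induced replicate 3, in which C1qb and Mpo passed, called 3.07% of all genes.

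The 9 endothelial markers, of interest for Apln, had mean levels from 5.21 to 5.25 on induced arrays, against 5.20 to 5.36 on control arrays. Of these markers 0 were called (0 also at an unadjusted p under 0.05, against 17.6% of all genes). Egfl7 stood at 0.61 and Tek at -0.74 (adjusted p = 0.385 and 0.34), but Egfl7 at 0.24 without induced replicate 3 and Tek at -0.31 without control replicate 3. Mural cell markers had mean levels from 5.94 to 6.20 on induced arrays and from 5.96 to 6.36 on control arrays, with 0 of 6 called (1 at an unadjusted p under 0.05), Notch3 at 0.80 and Myh11 at -0.62, or -0.21 without control replicate 3. Mesothelial markers held 0 calls of 7 (1 at an unadjusted p under 0.05), with a median of -0.08 and 2 positive and 5 negative estimates. Their mean levels ran from 5.26 to 5.52 on induced arrays and from 5.30 to 5.86 on control arrays. The 2 largest estimates were those of Msln at -1.17 and Wt1 at -0.51. Without control replicate 3 these were -0.66 and -0.33, and Wt1 was -0.34 without control replicate 2 and -0.85 without control replicate 1. The part of any of these cell types in the adipokine differences was not tested.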

How the data were processed

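Total RNA of 6 rat cultures, 3 induced and 3 control, was read on 1-colour Affymetrix arrays, as the labels' protocols state. The authors deposited log2 signals from RMA, per the submitters' processing notes. RMA corrects background, quantile normalizes the arrays and sums up each feature's probes. The RMA version and genome build are not given in the sources used here. The log2 scale was read from the values. Precision is limited by the number of arrays.

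Features with 1 symbol in the platform annotation (18511, against 575 with several and 17599 with none) were reduced to 18166 genes by the feature of highest mean. Gene numbers were checked against the GRCr8 table, which changed 0 symbols. The comparison used limma 3.58.1 under R 4.3.3 (lmFit, eBayes, two-sided, no block, 4 residual degrees of freedom), which was tested on simulated data. With 3 arrays a group the smallest exact permutation p is 0.1, and that test was left out. SE and intervals are those of the fit.

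The adipokines and the 14 other gene lists were chosen with earlier results of these data known. Most named genes follow a rule: all 9 adipokines, up to 4 called genes of each list or else its 2 largest estimates, and the 3 most similar genes of each adipokine spanning at least 2. Named outside this rule were Adipor1, Adipor2, Cmklr2, Ccrl2, Aplnr, Erbb3, Erbb4, Retnla, Retnlb and Retnlg. No file gave slides or scan dates, so batches were not tested. Alternatives were other priors, weights, filters, features, scalings and arrays left out.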

Additional observations from a re-analysis of the deposited data

How the results depend on the processing

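Over 17 alternatives, Adipoq, Lep, Retn, Nampt, Nrg4, Apln and Metrnl kept the direction of their differences in each fit that tested them, and Lep was not tested in the fit of genes at or above the median level. Rarres2 changed sign to 0.0146 with arrays centred on their median and 0.0632 with both replicate 3 arrays left out, and ran from -0.33 to 0.44 with 1 array left out (0.18 without induced replicate 3 and 0.44 without control replicate 2). Serpinf1 changed sign to 0.0346 without both replicate 3 arrays and 0.0046 without control replicate 1 and induced replicate 3 together, and ran from -0.18 to 0.0134 with 1 array left out, the last without induced replicate 3. Adipor1 changed sign to 0.0649 without both replicate 3 arrays and ran from -0.12 to 0.0221 with 1 array left out, the last without induced replicate 3. None of these 3 genes passed in any fit. The number of adipokines called, 2 in the report, was 4 with array weights (Adipoq, Lep, Retn and Nrg4), 1 among genes at or above the median level (Retn), 0 to 3 with 1 array left out, and 5 without control replicate 1 and induced replicate 3. The number of all genes called, 136 in the report, was 929 with array weights, 163 of 9083 among genes at or above the median level, and 69 over all features. It was 2 to 557 with 1 array left out, 740 without both replicate 3 arrays, and 978 without control replicate 1 and induced replicate 3. With the replicate number as a block, 0 adipokines and 12 genes were called. Same-numbered arrays deviated together at r = 0.02, 0.12 and 0.15 across genes, and differently numbered arrays at -0.14 to 0.12. The numbers were not taken as pairs, and whether same-numbered cultures shared an origin cannot be told from these values. The signal over background limits what can be read of Lep and Nrg4 in control cells.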
